A study of Solanum lycopersicum with 3 samples.

Results

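The ethylene receptors and signalling core are described here by 10 tomato (Solanum lycopersicum) genes, the receptors ETR1, ETR2, NEVER RIPE (NR, also ETR3), ETR4 and ETR5, the kinase CTR1, the membrane protein EIN2 and the transcription factors EIL1, EIL2 and EIL3. They were taken by their locus identifiers, and all 10 were among the 21717 loci of the deposited table. The table itself holds no gene names. A RefSeq gene table of assembly SLM_r2.1 listed each of the 10 names once, NR under its synonym ETR3, and placed all 10 on the chromosome that the locus identifier gives, but it holds no locus identifiers, so the pairing of names with loci rests on the member list.

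RNA came from young leaf primordia of the genotype slmp, whose line the growth protocol calls slmp-1 and which is mutated in the tomato counterpart of the auxin response factor MONOPTEROS. All libraries belonged to 1 group, labelled mock: seedlings from a chamber lit for 18 h and dark for 6 h had been sprayed with water (DDW), and the tissue was taken 1 h later. There were 3 replicate libraries, each from a pool of 15 primordia of the fifth leaf at stage P5, a stage counted in successive leaf initiations. No wild-type or ethylene-treated library was analysed here, so the data describe levels in the mutant and not an effect of the mutation or of ethylene, and whether the pools came from separate sets of plants is not stated.

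Ethylene is a gaseous hormone known in tomato for fruit ripening and, in leaves, for petiole epinasty, senescence and abscission. Its receptors sit in the endoplasmic reticulum membrane and, without ethylene, keep the kinase CTR1 active, which phosphorylates EIN2 and holds it inactive. When ethylene binds, the receptors fall silent, a part of EIN2 is released, and the EIN3-like (EIL) transcription factors, otherwise degraded through EBF F-box proteins, accumulate and switch on response genes. Much of this control acts on proteins, which RNA levels do not measure.

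Values are read counts that the authors divided by a factor for each library, called scaled values here. The loci summed to between 2499843 and 2746410 reads a library, and 1 read was worth 0.948 to 1.08 scaled units. Library preparation was by QuantSeq, in which a transcript of any length yields about 1 fragment at its 3′ end. Levels of different genes were therefore compared without division by length. Whether the annotation covers the 3′ end of each of the 10 genes was not tested. The counts of the members lay between 19 and 419 reads in a library. Loci recorded as markers of photosynthetic leaf had means of at least 751.7 at all 9 loci. Among loci recorded as leaf and primordium regulators, 5 of 6 reached 10 scaled units in every library. As 68.7% of all loci did so, that count says little about the tissue. Of 4 loci recorded as ripening-fruit markers, the 2 in the table had means of 0.948 and 1.64. Of 5 recorded as floral-organ markers, the 1 in the table had a mean of 126.8, so that list does not check the tissue.

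All 10 genes were expressed in every library, and the transcription factors at the end of the pathway were the most abundant. A value of at least 10 in each library was reached by 10 of 10 members, against 68.7% of all loci. The median member had a mean of 46.7, against 33.3 for the median locus, and 8 of 10 members lay above that median. Summed over the 3 EIL genes the signal was 486.2, 388.4 and 820.0 in replicates 1, 2 and 3, and summed over the 5 receptors it was 173.4, 179.7 and 197.2. The EIL sum was thus 3.04 ± 1.02 (SD, n = 3) times the receptor sum, and it was higher in 3 of 3 libraries. Without EIL3, whose level varied most, EIL1 and EIL2 together had 273.0, 260.7 and 368.5, still above the receptor sum in each library, and the log2 ratio of receptors to EIL genes changed from -1.55 ± 0.48 to -0.70. In bulk tissue, expression in fewer cells and less RNA per cell cannot be told apart.

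**Figure D1:**
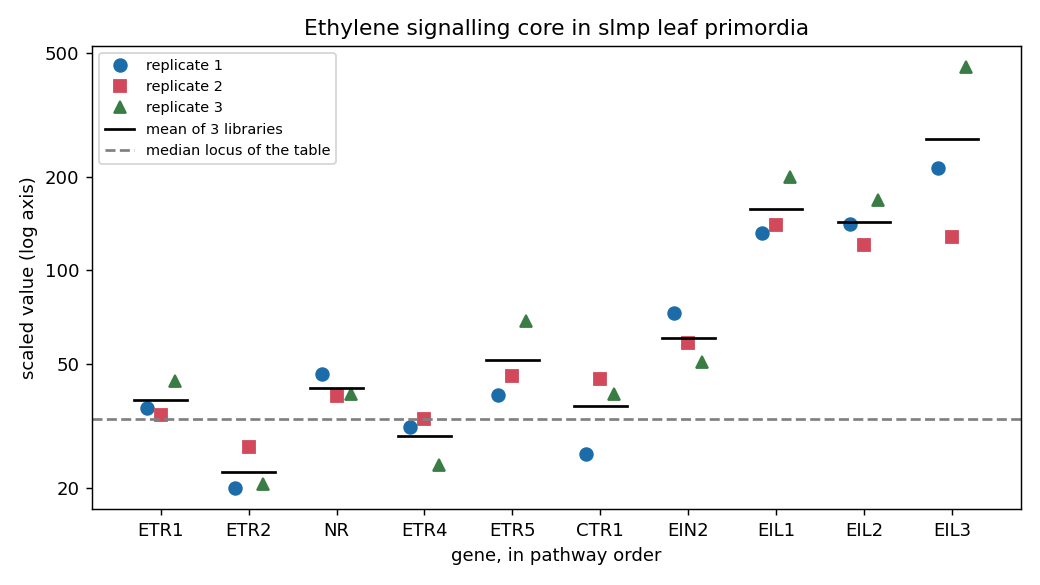
Scaled value (log axis) of each gene in the 3 libraries, with symbols for replicates, a bar for the mean and a dashed line at the median locus of the table (33.3). The 3 EIL genes lie above every receptor, CTR1 and EIN2 in all libraries, and EIL3 has the widest spread.

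The receptors had moderate levels, with ETR5 highest and ETR2 lowest by their means. The lead of ETR5 rested on replicate 3: without it the means of ETR5 and NR were 42.8 and 43.0. ETR1 (Solyc12g011330, chromosome 12), which with ETR2 and NR belongs to the receptor subfamily with a conserved histidine kinase domain, had values of 36.0, 34.3 and 44.2 in replicates 1, 2 and 3, a mean of 38.2 ± 5.29 (SD, n = 3). Replicate 3 was its highest library. ETR2 (Solyc07g056580, chromosome 7) was the lowest of the 10 genes, at 19.9, 27.0 and 20.5, a mean of 22.5 ± 3.95. It lay above 40.2% of all loci, and its counts of 21, 26 and 19 reads leave a counting error of 0.31 on the log2 scale.

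NR (Solyc09g075440, chromosome 9) is the receptor whose dominant Never ripe mutation blocks ethylene perception and ripening, and it differs from the other tomato receptors named here in lacking the receiver domain at its end. Its values were 46.4, 39.5 and 39.9, a mean of 41.9 ± 3.92 (SD, n = 3). These 3 values lay closer together than those of any other member, with an SD of 0.13 on the log2(value + 1) scale. That is below the 0.23 that counting reads alone would give at this depth, so it shows no more than that no spread beyond counting was detectable.

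ETR4 and ETR5 belong to the other subfamily, whose histidine kinase domain has diverged. ETR4 (Solyc06g053710, chromosome 6) had 31.3, 33.2 and 23.7, a mean of 29.4 ± 5.03 (SD, n = 3), and was lowest in replicate 3. ETR5 (Solyc11g006180, chromosome 11) had 39.8, 45.7 and 69.0, a mean of 51.5 ± 15.4, and was highest in replicate 3. The values of ETR4 and ETR5 did not overlap. Their difference was largest in replicate 3.

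Shares of the receptor signal do not depend on how a library was scaled. ETR5 took 27.8% ± 6.35 (SD, n = 3), NR 23.0% ± 3.4, ETR1 20.7% ± 1.66, ETR4 16.2% ± 3.61 and ETR2 12.3% ± 2.43 of the sum over the 5 receptors. ETR5 was 23.0% in replicate 1 and 35.0% in replicate 3, and NR held the largest share in replicate 1 only, at 26.8%. The subfamily of ETR1, ETR2 and NR summed to 102.4, 100.7 and 104.5, a mean of 102.5 ± 1.89. ETR4 and ETR5 together had 71.1, 78.9 and 92.7, a mean of 80.9 ± 10.9. Counting error was not worked out for these sums. ETR1, ETR2 and NR each varied less than their own counting error, so the small SD of their sum is no sign of a steadier level. The share of the first subfamily was 56.0% ± 3.01.

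**Figure D2:**
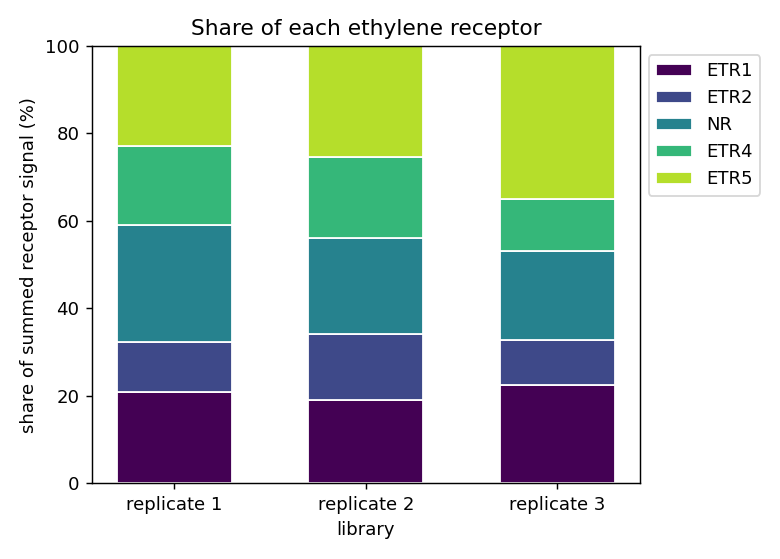
Share of the summed receptor signal (%) taken by each of the 5 receptors, as a stacked bar for each library. ETR5 takes 35.0% in replicate 3 against 23.0% in replicate 1, and ETR2 stays the smallest share in all 3.

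Between the receptors and the transcription factors, CTR1 was at the level of a single receptor and EIN2 somewhat higher. CTR1 (Solyc10g083610, chromosome 10), the kinase that represses the pathway, had 25.6, 44.7 and 39.9 in replicates 1, 2 and 3, a mean of 36.7 ± 9.92 (SD, n = 3), with replicate 1 low. Its values overlapped those of each of the 5 receptors. EIN2 (Solyc09g007870, chromosome 9), which carries the signal from the membrane to the nucleus, had 73.0, 58.2 and 50.6, a mean of 60.6 ± 11.4, and was highest in replicate 1, where CTR1 was lowest. The EIN2 to CTR1 ratio was 2.85 in replicate 1 and 1.30 and 1.27 in replicates 2 and 3. EIN2 did not overlap CTR1, nor 4 of the 5 receptors, but it overlapped ETR5, which was above it in replicate 3. Of pairs of detected loci (at least 10 in every library) within the range of the members' means, 66.3% did not overlap. The lowest EIN2 value, 50.6 from 47 reads, was close to the highest NR value, 46.4 from 49 reads.

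The EIL genes encode the transcription factors that bind ethylene-response promoters. EIL1 (Solyc06g073720, chromosome 6) had 131.7, 140.2 and 200.4, a mean of 157.5 ± 37.4 (SD, n = 3). EIL2 (Solyc01g009170, chromosome 1) had 141.2, 120.5 and 168.1, a mean of 143.3 ± 23.9. The values of these 2 genes overlapped, and their log2 ratio within libraries was 0.12 ± 0.20, less than its spread. Both were highest in replicate 3.

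EIL3 (Solyc01g096810, chromosome 1) had the highest mean and the least stable level of the 10 genes. Its values were 213.3, 127.7 and 451.5 in replicates 1, 2 and 3, a mean of 264.2 ± 167.8 (SD, n = 3). It lay above 91.9% of loci by its mean, at rank 1760. In replicate 2 it was below EIL1, so although it led in the mean its values overlapped those of EIL1 and EIL2. Without replicate 3 its mean was 170.5. EIL3 took 43.9% of the EIL signal in replicate 1, 32.9% in replicate 2 and 55.1% in replicate 3.

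The EIL genes stood apart from the other members by more than the spread between libraries, while most neighbouring genes in the order of levels did not. In order of means the genes were EIL3, EIL1, EIL2, EIN2, ETR5, NR, ETR1, CTR1, ETR4 and ETR2. Of the 9 pairs of neighbours in this order, 1 had values that did not overlap, EIL2 above EIN2, with a log2 ratio of 1.24 ± 0.42 (SD, n = 3). Each of the 21 pairs of an EIL gene with another member was free of overlap. Over all 45 pairs, 32 did not overlap, and 37 kept 1 order in all 3 libraries. Of all pairs of loci, 79.5% did not overlap, and among pairs of detected loci within the range of the members' means 66.3%, so the count of pairs is near the background. Among the receptors alone 6 of 10 pairs did not overlap, no more than the 66.3%. In these pairs ETR5, NR and ETR1 were each above ETR4 and ETR2. The closest was ETR1, with a lowest value of 34.3, over ETR4, with a highest of 33.2. Its log2 ratio within libraries was 0.38 ± 0.45 (SD, n = 3), less than its spread. Both genes of a pair were measured in the same libraries, so ratios were also taken within libraries. The smallest SDs among the 45 pairs were those of EIL2 over ETR1, 1.90 ± 0.08, and EIL1 over ETR5, 1.63 ± 0.09, on the log2 scale (SD, n = 3). Each is below the counting error of the lower gene alone, 0.24 for ETR1 and 0.21 for ETR5. They show no more than that no spread beyond counting was detectable. An exact two-sided permutation test cannot give a p below 0.1 with 3 values against 3, or below 0.25 with libraries paired, so no pair could pass 0.05 in either form.

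**Figure D3:**
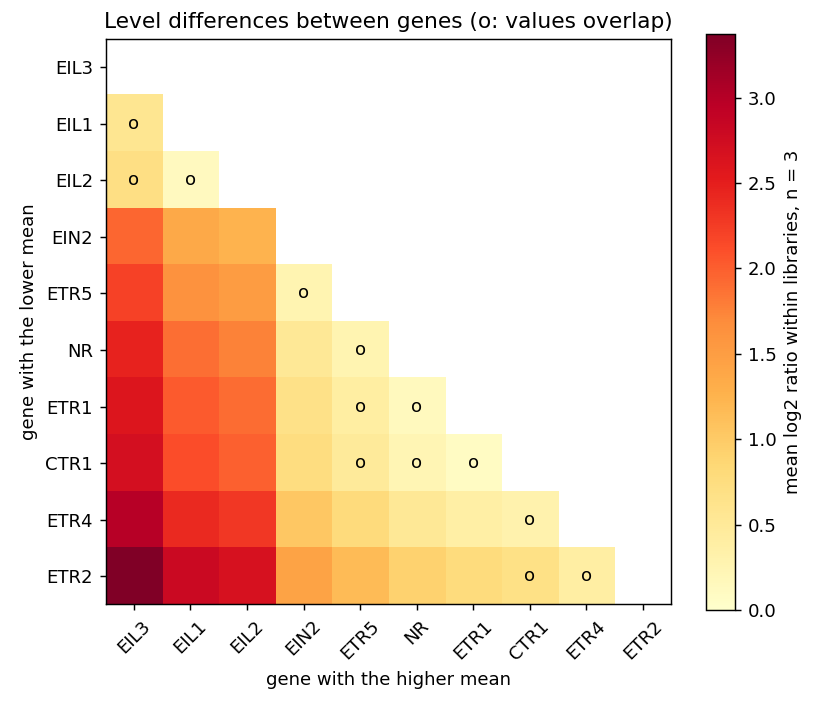
Mean log2 ratio within libraries (colour, n = 3) between the gene with the higher mean (columns) and that with the lower mean (rows), genes in order of their means. A circle marks the 13 pairs whose library values overlap, all of them among the EIL genes or among EIN2, CTR1 and the receptors.

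The median spread over the 3 libraries was close to that of other loci, and EIL3 had the widest. The median SD of log2(value + 1) over the 10 genes was 0.26, against 0.27 over all detected loci. Leaving out a library changed this: the members had 0.30 against 0.26 without replicate 1, 0.32 against 0.22 without replicate 2, and 0.16 against 0.19 without replicate 3. ETR1, ETR2, NR and ETR4 had SDs of 0.13 to 0.25, each below its own counting error. ETR5 and CTR1 had 0.40 and 0.41, which is 1.95 and 1.67 times counting error. EIL1 and EIL2 had 0.32 and 0.24, or 2.76 and 1.94 times a smaller counting error.

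EIL3 was the only member whose highest library was at least 2-fold above its lowest, 1 of 10, against 14.7% of detected loci. The ratio was 3.53 between replicates 3 and 2, and the SD of 0.91 was 8.95 times counting error. Of the 726 detected loci within a factor of 1.2 of its mean, itself included, 22 had an SD as large or larger. The median SD of the 726 was 0.22. EIL3 was singled out as the widest of the 10 members, so this count is a description and not a test. Without replicate 3 the ratio was 1.67, and no member passed 2-fold. The 9 loci recorded as photosynthetic-leaf markers summed to 25490, 15653 and 33845 in replicates 1, 2 and 3, the same order of libraries as EIL3, and 9 of 9 were highest in replicate 3, against 36.5% of detected loci. The 6 leaf and primordium regulators summed to 1344, 1798 and 1224. The part of these differences between libraries in the spread of EIL3 was not tested. Replicate 3 above 1 above 2 was also the order of ETR1 and EIL2, so that 3 of 10 members had it, against 20.5% of detected loci.

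**Figure D4:**
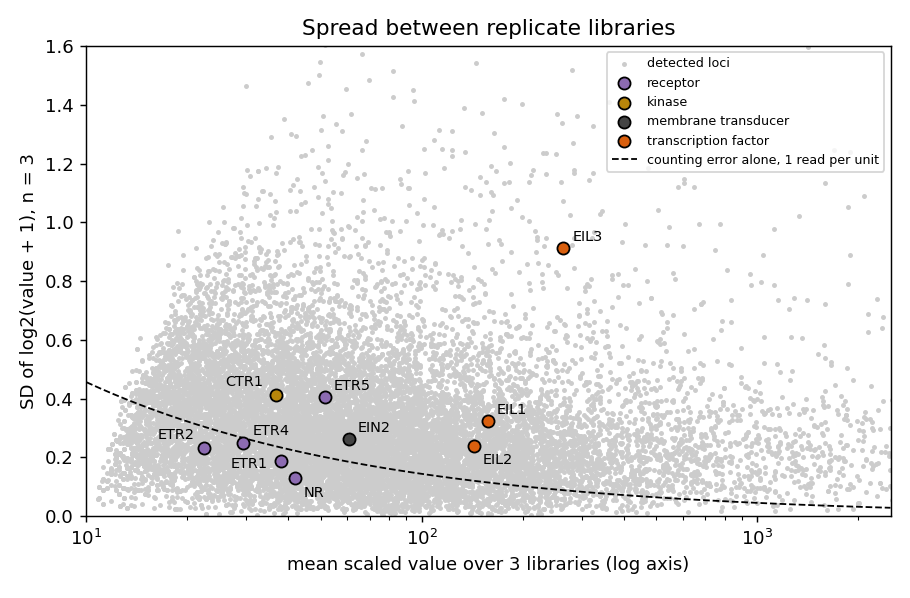
SD of log2(value + 1) over 3 libraries against mean scaled value (log axis) for detected loci (grey) and the 10 members (coloured by role), with a dashed line for counting error alone at 1 read per unit. EIL3 stands at 0.91, while the other members lie between 0.13 and 0.41 among the bulk of loci.

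Each locus was also set beside the loci before and after it in identifier order, since overlapping genes can share 3′ reads. None of the 20 neighbours was near-identical to its member in all libraries (within 3% of reads), and the closest, next to NR, differed by up to 17.4%. Sharing of only a part of the reads would not make counts near-identical, so this check would not find it. The locus after EIL1 is Solyc06g073730, recorded as a further EIN3-like factor, at 93.8, 81.0 and 104.5, a mean of 93.1 ± 11.8 (SD, n = 3). EIL1 was 1.69 times higher in its mean and its values did not overlap. The RefSeq table likewise has EIL4 on chromosome 6 with 1 gene row between it and EIL1. Reads that fit several related genes equally well may be missing from all of them, and the strand setting of the counting is not given in the sources used here.

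Around the core, both loci recorded for EBF feedback were more abundant than every receptor. The loci recorded for ethylene response and for ethylene formation ranged from below the detection limit to well above the receptors. These lists rest on identifiers recorded from general knowledge, and 28 of 37 recorded loci in 7 lists were in the table. Of the 28, 20 reached 10 units in every library, against 68.7% of all loci. The 28 had a median of 40.1, against 33.3 over the table. For CTR4 and EBF2, RefSeq gives chromosomes 10 and 8, where the recorded loci lie on 1 and 7, so these recorded loci may not carry those names.

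Of the 2 further loci recorded as receptors, 1 had a mean of 30.4 ± 6.63 (SD, n = 3), between ETR1 and ETR4, and the other had 6.11, below all 5 receptors. With them in the sum, the share of NR was 19.1% in place of 23.0%. The 3 further CTR-like kinase loci had means of 12.4 to 43.5, around that of CTR1. The 2 loci recorded as EBF F-box proteins, which target EIL proteins for degradation, had means of 240.1 ± 115.4 and 409.2 ± 57.2, above all 5 receptors. The first of them had 198.1, 151.6 and 370.7 in replicates 1, 2 and 3, the same order of libraries as EIL3. That order was found in 20.5% of detected loci. The second had 374.4, 378.0 and 475.2, with replicate 1 and not replicate 2 lowest.

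None of the 7 loci recorded as ACC synthases, which make the precursor of ethylene, was in the table, and their levels were not analysed here. Of the 6 recorded as ACC oxidases, which form ethylene from that precursor, 5 were in the table, with means from 2.33 to 331.0. In every library 3 of these 5 were detected, against 68.7% of all loci. Of the 16 recorded as ethylene response factors, the DNA-binding proteins downstream of EIL, 15 were in the table. The 15 had means from 2.82 to 580.7 and a median of 80.5, and 11 were detected, against 68.7% of all loci. By their means 8 of the 15 lay above all 5 receptors and 5 below all of them. Of the 11 detected, 3 had a highest library at least 2-fold above the lowest, against 14.7% of detected loci, and 8 were lowest in replicate 2, against 33.3%.

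**Figure D5:**
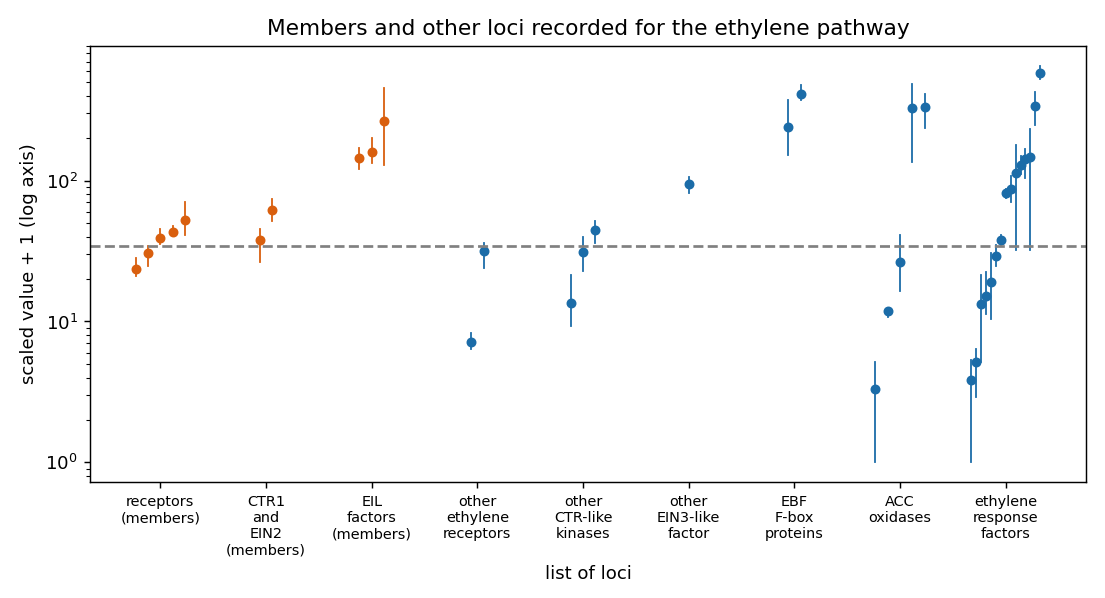
Mean scaled value plus 1 (points, log axis) with the range over 3 libraries (lines) for the members (orange) and for other loci recorded for the ethylene pathway (blue), the dashed line marking the median locus. The EBF loci lie at 240.1 and 409.2, above the receptors, and the response factors range up to 580.7.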

How the data were processed

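QuantSeq 3′ libraries of 3 replicates were analysed. The table deposited by the authors holds 1 signal value for each locus and library. The submitters' processing notes name Bowtie2, HTSeq and DESeq2, with no versions. Genome build and annotation: not given in the sources used here. Every value was a whole multiple of 1 step per library, within 0.001 of a step, and steps were read as reads. No value of 1 step occurred, so no count model was fitted. The 3 summary rows of the counting program, 48.0% of the scaled total, were left out of totals.

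Detection meant at least 10 in each library. Spreads are SDs of log2(value + 1), which understates differences of low loci. Counting error is the SD expected from read numbers alone, a lower limit, since reads lack molecular identifiers and may share a molecule. Genes were compared by overlap of their library values. The steps were tested on simulated data. The members, lists and tests were chosen with earlier results of these data known. All 10 members are named, and list loci are summarised. No sequence was used here. Python 3.11.15, numpy 2.4.6, pandas 2.3.3, SciPy 1.17.1 and matplotlib 3.10.9 were used.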

Additional observations from a re-analysis of the deposited data

Results flagged for a closer look

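A large part of the signal lies outside all gene values above, in the summary rows for reads that were assigned to no locus. The lowest share of any library was 21.2% for reads outside annotated features, 21.4% for reads aligned with low quality and 2.43% for ambiguous reads. Whether they include 3′ ends of the 10 genes was not tested. With 3 libraries, outlying samples were not looked for.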

How the results depend on the processing

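Among the recomputed results only the log2 ratio of receptors to EIL genes has a sign that could reverse, and it did not. Under the 2 other scalings no level of the 10 genes moved by more than 0.658%. The factors of these scalings centre on about 1 and largely cancel in a mean over 3 libraries, so this small move is no sign of stability. Leaving out 1 of 3 libraries cannot move a mean by a whole SD, so those values are given as ranges and not as a sign of stability. The mean of EIL3 ranged from 170.5 without replicate 3 to 332.4 without replicate 2. The share of NR was 19.1% with the 2 further receptor loci in the sum. The log2 ratio of receptors to EIL genes was -1.55, and -0.70 without EIL3 in the sum. Both settings were chosen after seeing the data. The median percentile of the members was 58.8 among all loci and 40.1 among detected loci only, where low loci are left out by construction. Leaving out each replicate gave 57.0 to 59.9 for that percentile and 0.16 to 0.32 for the median SD of 0.26, lowest without replicate 3 in both cases. The count of 32 non-overlapping pairs was 36 to 37 without a replicate, since 2 values overlap less often than 3, and 32 under both other scalings. Detection at 20 units was met by 9 members. No paired analysis was possible because the design has 1 group, with no other to pair it with; genes were compared within libraries by their log2 ratios. At these depths 3 reads amount to 2.84 to 3.23 scaled units, well below every member.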
